A study of Mus musculus with 6 samples.

Results

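The genes described here encode G protein-coupled receptors for prostanoids, extracellular nucleotides and adenosine, lysophospholipids, thrombin-like proteases, histamine, catecholamines, endothelins, angiotensin and protons, the adhesion receptors, the Gprc5 family and the receptors still numbered as Gpr. They were chosen by gene symbol alone, with no measured value in the rule, but with earlier results of these data known. The symbols picked out 135 of the 17491 genes listed, and 76 of those 135 were among the 13366 genes with enough reads for testing. Verapamil blocks L-type calcium channels and is given against high blood pressure and arrhythmia, and the study compared osteoblasts with and without it. Wild-type mesenchymal stem cells from mouse tibial and femoral marrow had been grown to day 7 in low-glucose medium with 15% serum, dexamethasone, 5 mM β-glycerophosphate and 50 µg/mL ascorbic acid. Of the 6 RNA-seq libraries, 3 were labelled control and 3 verapamil, and all 6 shared that medium. The verapamil dose, the length of exposure and the age and strain of the mice are not given in the labels. Nor do they state that replicates were separate cultures or animals. The p-values therefore speak only of the spread among these libraries, and that spread may be technical.

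These receptors span the plasma membrane with a bundle of helices and pass an outside signal to heterotrimeric G proteins. Gs raises cyclic AMP through adenylyl cyclase, Gi lowers it, and Gq opens calcium stores through phospholipase C beta. In bone, prostaglandin E acting through Gs-coupled receptors, nucleotides acting through P2Y receptors, lysophospholipids and noradrenaline are known regulators of osteoblasts and of the blood-derived cells beside them. Gpr107, Gpr108, Gpr89, Gpr137, Gpr155 and Gpr180 carry the Gpr name but are not established G protein-coupled receptors. The first 5 are known as proteins of the Golgi or the lysosome.

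The libraries held 18.2 M to 21.7 M estimated counts and 15757 to 15962 detected genes each. Levels are given as CPM, counts scaled to a common library total and corrected for library composition, as mean ± SD with n = 3 a group. The control libraries were farther apart than the verapamil libraries, with a biological coefficient of variation of 12.4% against 4.44%. Osteoblast markers were abundant, with summed levels of 44943 to 57292 CPM in controls and 27279 to 27398 CPM with verapamil, and 11 of 12 were lower with verapamil. RNA of macrophages was present in every library: the 16 markers summed to 10346 to 12933 CPM in controls and to 18780 to 21172 CPM with verapamil, and 12 of 16 were higher. Much of that sum was Lyz2, at 5536 ± 1039 CPM in controls and 11197 ± 883 CPM with verapamil. Mrc1, Csf1r, Fcgr1 and Aif1 were not among the 12. Markers of the hypoxia response summed to 2110 to 5428 CPM in controls and to 1373 to 1611 CPM with verapamil, with 10 of 12 lower. Beside these marker counts, 15.4% of all genes tested were higher and 16.3% lower, by the test given below. In such bulk samples, fewer cells of a type and less RNA per cell cannot be told apart.

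Verapamil libraries showed both higher and lower receptor transcripts. At an adjusted p under 0.05 (edgeR's quasi-likelihood test, Benjamini-Hochberg over all genes tested), 12 receptors rose and 15 fell, and 49 did not pass. The rises were 15.79% of the 76 tested, where 15.4% of all genes tested were called higher. The falls were 19.74%, where 16.3% of all genes were called lower. The 35.53% called in either direction stood beside 31.7% of all genes, so the receptors' share was near the background. Their median log2 fold change was 0.03, and that of all genes tested was 0.01. The fitted values ran from -1.84 for F2rl3 to 1.40 for Adra1a. The 3 verapamil values all lay above the 3 control values for 25 receptors and all below them for 20, where 25.2% and 24.4% of all genes tested did so. The summed level of the receptors was 2329 to 2386 CPM in controls and 2230 to 2335 CPM with verapamil, so the sums overlapped.

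The counts moved with single libraries. Without verapamil replicate 1 the count of receptors higher was 7, and without verapamil replicate 2 it was 6 higher and 10 lower. The share of all genes called was then 16.7% and 16.6%. With library totals as the only scaling, 19 receptors were higher and 14 lower, and 57.6% of the receptors called were higher in place of 44.4%. That scaling moved the median of all genes to 0.09. Of the 27 receptors called, 16 kept their call and direction with each library left out and under every other setting tried. The 6 higher ones were Adra1a, P2ry1, Gpr65, Ptger2, Adgrg6 and Adgre1. The 10 lower ones were F2rl3, Gprc5c, Adgrd1, Gpr176, Gpr153, Gpr161, Adgrg2, Gpr180, Lpar1 and Adgrf5.

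**Figure D1:**
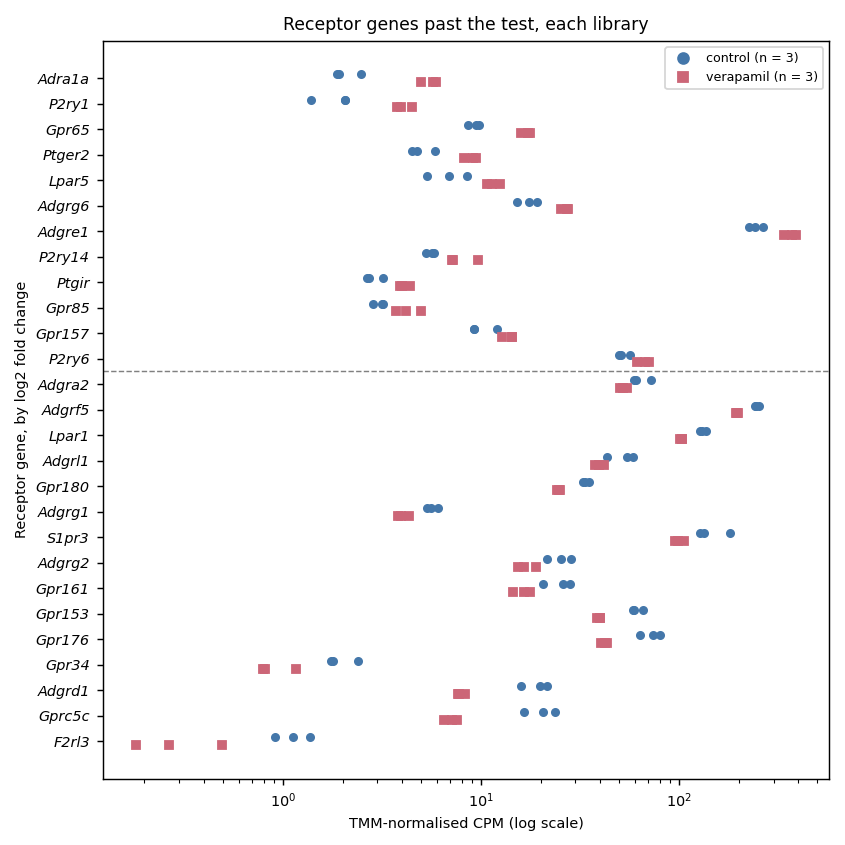
Level of each of the 27 receptor genes called, in CPM on a log axis, with 1 point per library for the 3 control and the 3 verapamil libraries. The 3 verapamil points lie on one side of the 3 control points for every gene shown, from F2rl3 at 1.14 CPM in controls to Adgrf5 at 247 CPM.

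A change of at least 1 on the log2 scale was called for 6 receptors, 2 higher and 4 lower. Among all genes tested, 1.17% were called higher and 2.87% lower by that much. Adra1a, the Gq-coupled alpha-1A adrenergic receptor for noradrenaline (chromosome 14, 66635251 to 66771240, GRCm38), was at 2.49, 1.87 and 1.93 CPM in control replicates 1, 2 and 3 and at 5.90, 5.01 and 5.75 CPM in verapamil replicates 1, 2 and 3. All verapamil values were above all control values, and Adra1a rose 2.64-fold, a log2 fold change of 1.40 ± 0.16 (SE) with an adjusted p of 0.000741. P2ry1, the Gq-coupled receptor for ADP (chromosome 3, 61002785 to 61008982), had 2.07, 1.39 and 2.07 CPM in the controls and 4.47, 3.92 and 3.77 CPM in the verapamil libraries, given here and below in the order of replicates 1 to 3. The groups did not overlap, and P2ry1 rose by 1.12 ± 0.19 on the log2 scale (adjusted p = 0.00359). Both receptors stayed at a few CPM in either group.

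Gprc5c, an orphan receptor known for its induction by retinoic acid (chromosome 11, 114851150 to 114872617), had 20.5, 23.6 and 16.5 CPM in the controls and 6.49, 7.17 and 7.55 CPM with verapamil. It fell by 1.51 ± 0.14 on the log2 scale (adjusted p = 0.000364), and its groups lay far apart. Adgrd1, an adhesion receptor that couples to Gs (chromosome 5, 129096750 to 129204599), had 19.8, 21.6 and 16.0 CPM in the controls and 7.71, 7.62 and 8.31 CPM with verapamil, a log2 fold change of -1.28 ± 0.12 (adjusted p = 0.000406). F2rl3, the thrombin receptor PAR4 known best from platelets (chromosome 8, 72761659 to 72763898), rested on few reads, 24, 17 and 30 in the controls and 5, 4 and 11 with verapamil. Even so the groups did not overlap, and the log2 fold change was -1.84 ± 0.38 (adjusted p = 0.00853). Of the markers of megakaryocytes, which make platelets, Pf4 fell from 59.8 ± 7.27 to 27.99 ± 2.18 CPM (adjusted p = 0.000345), Itga2b was near 1 CPM, and Gp9 and Ppbp were at or near 0. Their part in the fall of F2rl3 was not tested. Gpr34, a lysophosphatidylserine receptor of microglia and macrophages (chromosome X, 13622650 to 13640859), had 1.78, 2.40 and 1.75 CPM in the controls and 0.797, 0.812 and 1.17 CPM with verapamil (log2 fold change -1.08 ± 0.25, adjusted p = 0.0135). Gpr34 lost its call without verapamil replicate 1 or 2, with adjusted p of 0.0580 to 0.0610.

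The RefSeq promoter table for GRCm38.p6 held entries for 98 of the 135 receptors, among them 9 of the 12 that rose and 11 of the 15 that fell. The 250 bases before the listed start are printed so that the sequence there can be read. The genes are the 2 largest rises and the 2 largest falls with an entry. They are P2ry1 (chr3:61002535-61002784, plus strand), Gpr65 (chr12:98268385-98268634, plus strand), F2rl3 (chr8:72761409-72761658, plus strand) and Gpr176 (chr2:118373420-118373669, minus strand), each written 5′ to 3′ on the gene's strand with motif matches in capitals.
P2ry1: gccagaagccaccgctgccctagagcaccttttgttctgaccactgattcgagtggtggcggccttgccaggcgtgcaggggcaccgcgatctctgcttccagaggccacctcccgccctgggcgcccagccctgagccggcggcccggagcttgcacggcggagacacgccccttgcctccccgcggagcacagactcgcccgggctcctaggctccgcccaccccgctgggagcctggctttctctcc
Gpr65: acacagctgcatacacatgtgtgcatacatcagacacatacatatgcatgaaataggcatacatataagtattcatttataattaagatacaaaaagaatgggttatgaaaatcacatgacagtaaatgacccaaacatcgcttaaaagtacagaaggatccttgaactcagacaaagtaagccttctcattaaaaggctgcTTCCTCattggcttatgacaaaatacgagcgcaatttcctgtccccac
F2rl3: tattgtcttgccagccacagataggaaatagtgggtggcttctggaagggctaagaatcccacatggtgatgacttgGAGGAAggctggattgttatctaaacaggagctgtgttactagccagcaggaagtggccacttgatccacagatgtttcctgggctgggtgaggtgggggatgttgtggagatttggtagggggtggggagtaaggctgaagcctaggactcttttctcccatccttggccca
Gpr176: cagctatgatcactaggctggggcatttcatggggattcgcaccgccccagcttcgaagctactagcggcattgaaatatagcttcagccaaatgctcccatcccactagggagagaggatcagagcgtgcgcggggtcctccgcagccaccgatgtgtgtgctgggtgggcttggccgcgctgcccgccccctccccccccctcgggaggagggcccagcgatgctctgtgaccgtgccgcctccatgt

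The motifs searched, on both strands, were TGACG (part of a cyclic AMP response site), TGANTCA (AP-1), GAGGAA (the core of sites for the myeloid factor PU.1), TGTGGT (the core of RUNX sites) and ACGTG (the core of hypoxia response sites). In the 4 sequences the only matches were of GAGGAA, once in F2rl3 and once, on the other strand, in Gpr65. GAGGAA was held by 3 of the 9 promoters of receptors that rose, 6 of the 11 of receptors that fell, and 23.1% of the 27025 promoters in the table. ACGTG was held by 0 of 9 and 2 of 11, where 16.6% of all promoters hold it, and TGACG by 1 of 9 and 1 of 11, where 17.9% do. TGANTCA was in 1 of 9 and 0 of 11 (6.87% of all promoters), and TGTGGT in 1 of 9 and 0 of 11 (14.2%). A match is a string of letters and not a site shown to be bound. Genes with more than 1 listed start were taken at the first. For F2rl3, bases shortly after the listed start were not found in a GENCODE transcript of the gene, so that start is uncertain. The same held for Gpr153, Gpr161, S1pr3, Gpr180 and Ptger2, which are in the promoter counts.

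**Figure D2:**
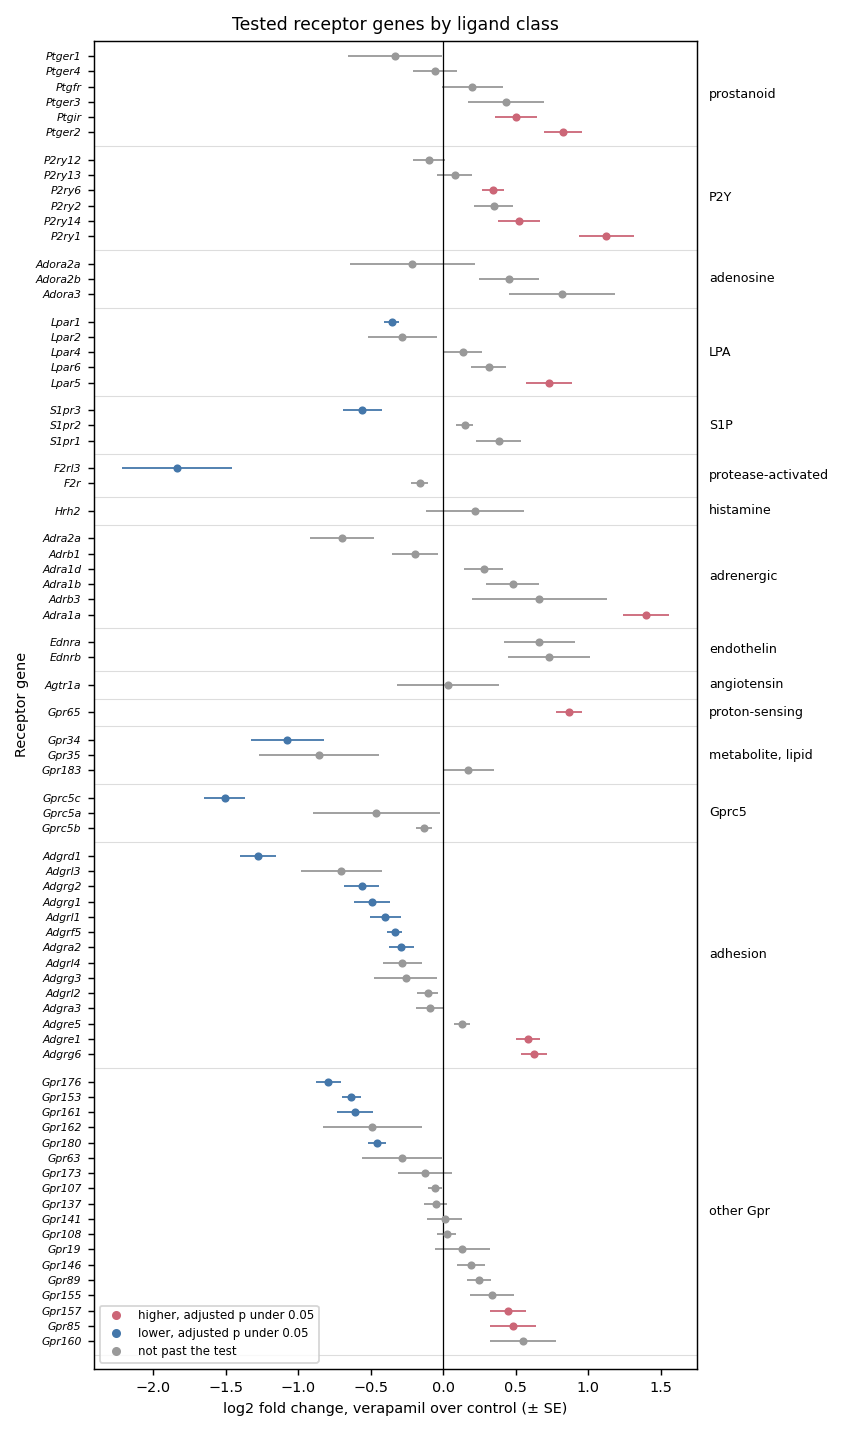
Log2 fold change of verapamil against control for 74 of the 76 receptors tested, grouped by ligand class, with SE as error bars and colour for the call. Values run from -1.84 to 1.40, and the adhesion class, with 14 of the 76 receptors tested, holds 6 of the 15 falls.

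All 6 prostanoid receptor genes in the rule were tested, and 2 rose while none fell. Over all genes tested, 15.4% were called higher and 16.3% lower. The prostanoid count higher was 1 under the DESeq2 test, with a replicate block, and on leaving out any library but control replicate 3. Ptger2, the Gs-coupled receptor for prostaglandin E, had 4.46, 4.75 and 5.83 CPM in the controls and 9.14, 9.43 and 8.18 CPM with verapamil. Its groups lay well apart, and it rose by 0.83 ± 0.13 on the log2 scale (adjusted p = 0.00284). Ptgir, the Gs-coupled prostacyclin receptor, rose from 2.87 ± 0.300 to 4.07 ± 0.251 CPM (log2 fold change 0.50 ± 0.14, adjusted p = 0.0304). That call was lost on leaving out any library but control replicate 3, with adjusted p of 0.0511 to 0.111. Ptger4, the other Gs-coupled receptor for prostaglandin E, had a log2 fold change of -0.06 ± 0.15 (adjusted p = 0.801), with 5.72 ± 0.359 CPM in controls and 5.50 ± 1.06 CPM with verapamil. Ptger3, coupled to Gi, was at 0.43 ± 0.26 (adjusted p = 0.238). Ptgfr, the Gq-coupled receptor for prostaglandin F, had the highest level per kilobase of transcript in the class. It had 46.9, 29.3 and 54.2 CPM in the controls and 50.3, 53.1 and 46.8 CPM with verapamil, so the groups overlapped (adjusted p = 0.503). Ptger1 was at -0.33 ± 0.33 (adjusted p = 0.475), and 63.0% of its exon bases are shared with an overlapping gene, so its reads are uncertain.

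P2Y receptors answer to extracellular nucleotides, and 3 of the 6 tested rose while none fell. Beside P2ry1, they were P2ry14 and P2ry6. Over all genes tested, 15.4% were called higher and 16.3% lower. The P2Y count higher was 1 without control replicate 1, verapamil replicate 1 or verapamil replicate 2. It was 4 without control replicate 2. P2ry6, the Gq-coupled receptor for UDP, had the highest level per kilobase in the class, with 51.2, 49.6 and 56.4 CPM in the controls and 67.4, 70.9 and 61.2 CPM with verapamil. No values overlapped, and the log2 fold change was 0.34 ± 0.08 (adjusted p = 0.0110). P2ry14, the Gi-coupled receptor for UDP-sugars, rose from 5.59 ± 0.263 to 8.02 ± 1.45 CPM (0.52 ± 0.14, adjusted p = 0.0261). P2ry14 and P2ry6 each lost the call without control replicate 1, verapamil replicate 1 or verapamil replicate 2, with adjusted p of 0.0513 to 0.0943 for P2ry14 and 0.0506 to 0.0593 for P2ry6. P2ry12 and P2ry13, Gi-coupled receptors for ADP that lie beside P2ry14 on chromosome 3, stood at -0.10 ± 0.11 (adjusted p = 0.522) and 0.08 ± 0.12 (adjusted p = 0.663). P2ry2, the receptor for ATP and UTP and a neighbour of P2ry6 on chromosome 7, had values of 10.5, 11.1 and 8.04 CPM in the controls and 13.7, 11.95 and 11.9 CPM with verapamil. These did not overlap, yet P2ry2 did not pass (0.35 ± 0.13, adjusted p = 0.0775).

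Adenosine receptors were scarce, and none of the 3 tested passed. The Gs-coupled Adora2b had 1.74 ± 0.408 CPM in controls and 2.38 ± 0.154 CPM with verapamil (0.45 ± 0.21, adjusted p = 0.132), without overlap. The Gi-coupled Adora3 was at 0.82 ± 0.37 (adjusted p = 0.122) and the Gs-coupled Adora2a at -0.22 ± 0.43 (adjusted p = 0.738), both under 1 CPM in each group.

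Lysophosphatidic acid receptors moved in opposite directions. Lpar1, the main such receptor of fibroblasts and osteoblasts, had the highest level per kilobase in the class, with 131, 137 and 127 CPM in the controls and 101, 104 and 104 CPM with verapamil. The spread within groups was small, and Lpar1 fell by 0.36 ± 0.05 on the log2 scale (adjusted p = 0.00197). Lpar5, known from macrophages and other blood cells, had 6.90, 5.34 and 8.54 CPM in the controls and 10.7, 12.5 and 11.4 CPM with verapamil, a rise of 0.73 ± 0.16 (adjusted p = 0.0107). Without verapamil replicate 2 the adjusted p of Lpar5 was 0.0531. Lpar6, which couples to G12 and G13, was at 0.31 ± 0.12 (adjusted p = 0.0792), Lpar4 at 0.13 ± 0.13 (adjusted p = 0.482) and Lpar2 at -0.28 ± 0.24 (adjusted p = 0.404).

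Of the sphingosine 1-phosphate receptors, 1 of 3 tested passed, where 31.7% of all genes tested passed in either direction. S1pr3, coupled to several G proteins, had 127, 182 and 134 CPM in the controls and 106, 95.6 and 99.0 CPM with verapamil. Control replicate 2 was highest and no values overlapped. S1pr3 fell by 0.56 ± 0.13 (adjusted p = 0.0176), and lost the call without verapamil replicate 2 or 3 (adjusted p 0.0590 to 0.0675). S1pr1, coupled to Gi and known from endothelium and lymphocytes, had 106, 87.3 and 139 CPM in the controls and 140, 153 and 139 CPM with verapamil, and did not pass (0.38 ± 0.16, adjusted p = 0.106). Without control replicate 3 its log2 fold change was 0.57 with an adjusted p of 0.00144, and without control replicate 2 it was 0.23. S1pr1 did not pass on leaving out any library but control replicate 3 (adjusted p 0.176 to 0.258). S1pr2 varied little, from 31.7 ± 1.26 to 35.1 ± 0.317 CPM (0.15 ± 0.06, adjusted p = 0.0911).

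The main thrombin receptor F2r had 54.3 ± 1.67 CPM in controls and 48.5 ± 2.08 CPM with verapamil (-0.16 ± 0.06, adjusted p = 0.0678). Hrh2, the Gs-coupled histamine receptor and the only histamine receptor tested, was near 0.5 CPM in both groups (0.22 ± 0.34, adjusted p = 0.660).

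Adra1a was the 1 adrenergic receptor of 7 tested that passed, where 31.7% of all genes tested passed in either direction. Adra2a, the Gi-coupled alpha-2A receptor, had the highest level per kilobase in the class, with 124, 181 and 94.7 CPM in the controls and 82.7, 81.0 and 82.6 CPM with verapamil. The verapamil values were nearly identical and lay below every control value, while the control values were far apart. Adra2a narrowly missed the threshold (-0.70 ± 0.22, adjusted p = 0.0535). Without control replicate 3 its log2 fold change was -0.90 (adjusted p = 0.00356), and without control replicate 2 it was -0.42 (adjusted p = 0.0219). The Gq-coupled Adra1b and Adra1d, relatives of Adra1a, were at 0.48 ± 0.18 (adjusted p = 0.0774) and 0.28 ± 0.13 (adjusted p = 0.150). Adrb1 was at -0.19 ± 0.16 (adjusted p = 0.382) and Adrb3, under 1 CPM, at 0.66 ± 0.47 (adjusted p = 0.314).

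Both endothelin receptors had verapamil values above every control value, and neither passed. Ednra, the Gq-coupled receptor of smooth muscle and mesenchymal cells, had 27.1, 18.1 and 38.4 CPM in the controls and 43.1, 48.4 and 41.4 CPM with verapamil (0.66 ± 0.25, adjusted p = 0.0865). Ednrb, known from endothelium, had 19.2, 9.67 and 21.9 CPM in the controls and 30.7, 30.1 and 23.6 CPM with verapamil (0.73 ± 0.28, adjusted p = 0.0953). Control replicate 2 was lowest for both. Without control replicate 3 the log2 fold changes were 0.96 (adjusted p = 0.00415) and 0.95 (adjusted p = 0.0479). Without control replicate 2 they were 0.43 (adjusted p = 0.0777) and 0.45 (adjusted p = 0.0229). Neither receptor passed without control replicate 1 or any verapamil library. The adjusted p was then 0.144 to 0.210 for Ednra and 0.118 to 0.215 for Ednrb. The angiotensin receptor Agtr1a was at 0.03 ± 0.35 (adjusted p = 0.960), under 1 CPM in each group.

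Gpr65, a Gs-coupled receptor that senses protons and is known from blood cells, had 8.64, 9.83 and 9.42 CPM in the controls and 15.8, 17.6 and 17.2 CPM with verapamil. The groups lay far apart beside their spread, and Gpr65 rose by 0.87 ± 0.09 (adjusted p = 0.000558). An antisense gene overlaps 24.7% of its exon bases, and another overlaps 23.1% of those of P2ry1, and the strand setting of the counts is not given in the sources used here. Gpr35, a receptor for tryptophan metabolites and lysophospholipids, had 23.9, 39.0 and 11.2 CPM in the controls and 14.3, 14.2 and 12.3 CPM with verapamil, so the lowest control lay below every verapamil value (-0.86 ± 0.41, adjusted p = 0.163). Without control replicate 3 the log2 fold change was -1.21 (adjusted p = 0.00439), and without control replicate 2 it was -0.38. Gpr35 did not pass on leaving out any library but control replicate 3 (adjusted p 0.230 to 0.485). Gpr183, the oxysterol receptor, was at 0.17 ± 0.18 (adjusted p = 0.494). Gprc5b, a relative of Gprc5c with the highest level per kilobase of that family, had 102.7 ± 3.09 CPM in controls and 93.6 ± 3.36 CPM with verapamil (-0.13 ± 0.05, adjusted p = 0.0910).

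Adhesion receptors carry a long extracellular stretch that is cut near the membrane and can bind matrix or neighbouring cells. Of the 25 in the rule, 14 were tested, 2 rose and 6 fell, with a median log2 fold change of -0.29. The rises were 14.3% and the falls 42.9% of those tested, beside 15.4% and 16.3% of all genes tested. Adgre1, whose protein is the macrophage antigen F4/80, had 243, 227 and 265 CPM in the controls and 373, 391 and 337 CPM with verapamil. No values overlapped, and Adgre1 rose by 0.58 ± 0.08 (adjusted p = 0.00162). The second rise was of Adgrg6, a Gs-coupled receptor for collagen IV and laminin needed for myelination and for the growing spine, from 17.3 ± 1.92 to 26.7 ± 1.03 CPM (0.62 ± 0.09, adjusted p = 0.00196).

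Of the 6 adhesion receptors that fell, Adgrf5 had the highest level per kilobase. It is a receptor known from lung epithelium and endothelium, and had 246, 254 and 241 CPM in the controls and 197, 196 and 193 CPM with verapamil (-0.34 ± 0.05, adjusted p = 0.00247). Its 3 verapamil values spanned less than 5 CPM. Adgrg2, an orphan receptor known from the epididymis, fell from 25.1 ± 3.54 to 16.9 ± 1.81 CPM (-0.56 ± 0.12, adjusted p = 0.00946). Adgrg1, a collagen III receptor, fell from 5.67 ± 0.369 to 4.02 ± 0.256 CPM (-0.49 ± 0.12, adjusted p = 0.0174). The latrophilin Adgrl1, a receptor for teneurins, fell by 0.40 ± 0.11 (adjusted p = 0.0247), and Adgra2, a Wnt7 co-receptor of vessels, by 0.29 ± 0.09 (adjusted p = 0.0338). These last 3 calls were lost without control replicate 1, verapamil replicate 1 or verapamil replicate 2, and those of Adgrl1 and Adgra2 also without verapamil replicate 3. The adjusted p then ran from 0.0584 to 0.123. The count of adhesion receptors lower was thus 3 without any 1 of control replicate 1, verapamil replicate 1 and verapamil replicate 2, and 4 with library totals as the only scaling. Adgre5, an adhesion receptor of leukocytes, stood at 0.13 ± 0.05 (adjusted p = 0.104).

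Among the 44 remaining Gpr genes, 18 were tested, 2 rose and 4 fell. The rises were 11.1% and the falls 22.2% of those tested, beside 15.4% and 16.3% of all genes tested. Gpr176, an orphan receptor known from the circadian clock of the brain, had 74.3, 80.0 and 63.5 CPM in the controls and 42.3, 40.1 and 43.0 CPM with verapamil. It fell by 0.79 ± 0.09 (adjusted p = 0.000619) without overlap. Gpr153, an orphan receptor, fell from 61.4 ± 3.89 to 39.6 ± 0.755 CPM (adjusted p = 0.000472). Gpr161, a receptor of the primary cilium that restrains hedgehog signalling through cyclic AMP, fell from 24.8 ± 3.90 to 16.2 ± 1.54 CPM (-0.61 ± 0.13, adjusted p = 0.00838). Gpr180 fell from 33.8 ± 1.29 to 24.6 ± 0.474 CPM (-0.46 ± 0.06, adjusted p = 0.00145). The 2 rises were of the orphan receptors Gpr157 and Gpr85, by 0.44 ± 0.12 (adjusted p = 0.0277) and 0.48 ± 0.16 (adjusted p = 0.0463). Gpr157 lost the call without control replicate 3 or any verapamil library (adjusted p 0.0528 to 0.101), and Gpr85 on leaving out any 1 library (0.0518 to 0.166). Of the Golgi proteins, Gpr107 was at -0.06 ± 0.05 (adjusted p = 0.374) and Gpr108 at 0.02 ± 0.07 (adjusted p = 0.822).

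Divided by transcript length, Adgre1 had the highest receptor level in both groups, 75.6 CPM per kilobase in controls and 113.4 with verapamil. In controls the next were Lpar1 at 37.2, S1pr1 at 36.3, S1pr3 at 33.1, Adgrf5 at 28.9, Adra2a at 27.6 and P2ry6 at 26.9 CPM per kilobase. S1pr1 varied among controls by more than its distance to Lpar1 and S1pr3, so those neighbours were not separated. With verapamil the order after Adgre1 was S1pr1 at 47.3, P2ry6 at 34.2 and Lpar1 at 29.0 CPM per kilobase, while S1pr3 came to 22.5 and Adra2a to 16.98. Gpr176 went from 18.6 to 10.7 CPM per kilobase. Most receptors were scarce: the 76 tested had a median level of 10.3 CPM, against 25.9 CPM over all genes tested, and 9 were under 1 CPM.

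**Figure D3:**
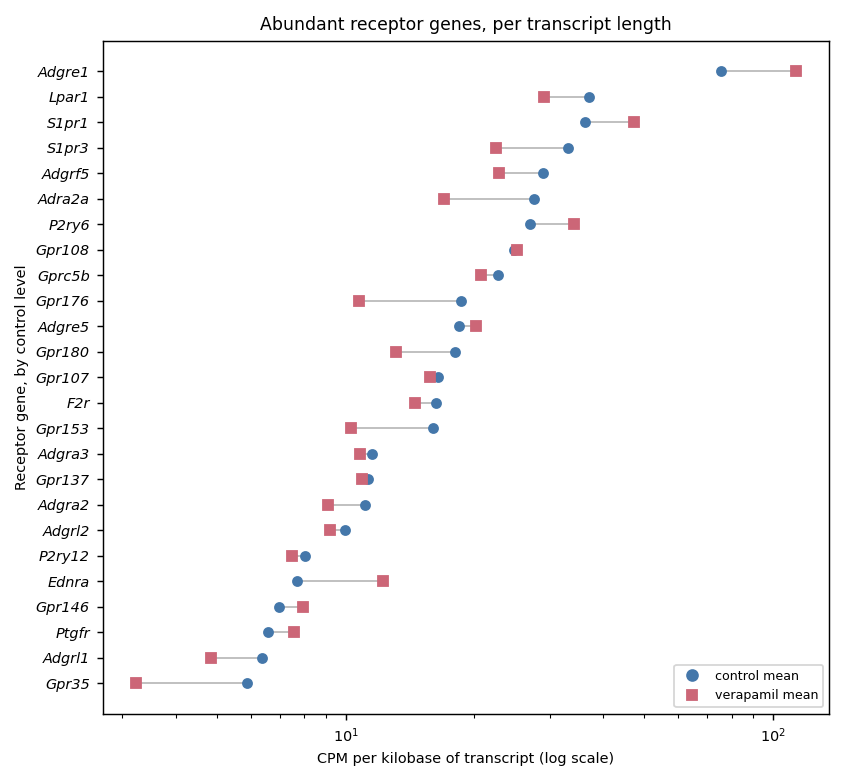
Mean level per kilobase of transcript (log axis) in control (circles) and verapamil (squares) libraries for 25 of the most abundant receptor genes, ordered by the control level. Adgre1 is highest in both groups, at 75.6 and 113.4 CPM per kilobase.

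Control libraries differed from each other more than verapamil libraries did. Among the 38 receptors with a mean of at least 10 CPM, the median coefficient of variation was 11.3% in controls and 5.37% with verapamil, and it was larger in controls for 30. Control replicate 2 was the highest control for 31 of the 76 receptors and the lowest for 35, which is 86.8% of them against 79.5% of all genes tested. In 7 of the 38, chosen after their values were seen, the control coefficient of variation passed 20%: Gpr35 (56.4%), Ednrb (37.9%), Ednra (36.5%), Adra2a (33.0%), Ptgfr (29.5%), S1pr1 (23.6%) and S1pr3 (20.1%). The mean of log2(CPM + 0.1) over 12 hypoxia-response markers was 6.07, 6.86 and 5.38 in the controls and 4.69, 4.41 and 4.58 with verapamil. Gpr35 and Adra2a were highest in control replicate 2 and lowest in control replicate 3, as the hypoxia markers were. The same order held for 8 of the 15 receptors that fell, Gprc5c, Adgrd1, Gpr34, Gpr176, Gpr161, Adgrg2, Lpar1 and Adgrf5, and for none of the 12 that rose. Among all genes tested it held for 25.4%, among all genes called lower for 48.6% and among those called higher for 8.13%. The reverse order held for 4 of the 15 receptors that fell and 6 of the 12 that rose. It held for 24.3% of all genes tested, 8.07% of those called lower and 41.9% of those called higher. Ednra, Ednrb, Ptgfr and S1pr1 were lowest in control replicate 2 and highest in control replicate 3. The part of the hypoxia response in these receptors' levels was not tested.

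**Figure D4:**
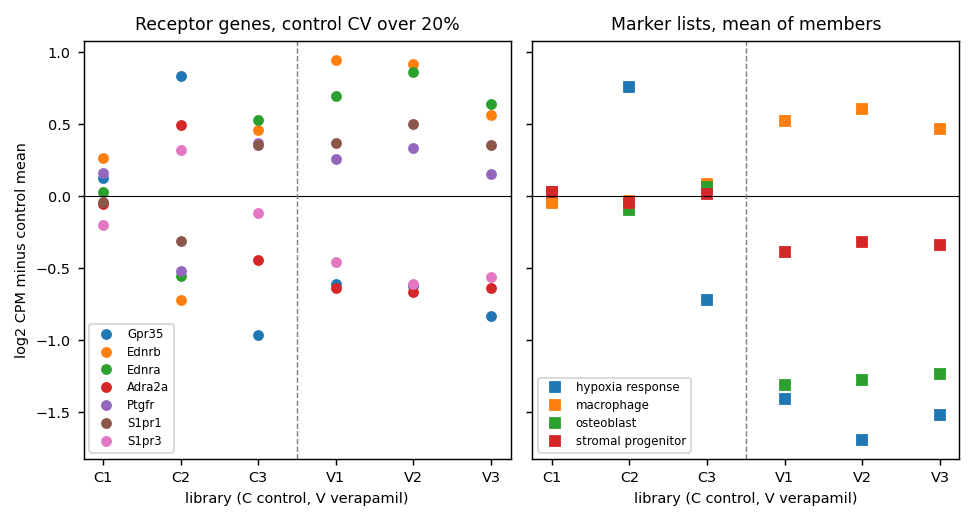
Values minus the control mean in each library, as log2 CPM for the 7 receptors with a control coefficient of variation over 20% (left) and as the mean of log2(CPM + 0.1) for 4 marker lists (right). Control replicates 2 and 3 lie on opposite sides of the control mean for all 7 receptors and for the hypoxia list, and the 3 verapamil libraries lie close together.

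Some receptors outside the adhesion family were also grouped by the G protein they are best known to use. Adgrd1, which fell, and Adgrg6, which rose, are therefore not among the Gs-coupled receptors counted here. Nor does any group hold F2rl3, Gprc5c, S1pr3, Lpar1, Gpr176, Gpr153, Gpr161 or Gpr180, which fell. Lpar5, Gpr157 and Gpr85, which rose, are also in no group, so the counts leave all of these out. Of 10 such Gs-coupled receptors tested, 3 rose and none fell, with a median log2 fold change of 0.33. Of 11 Gq-coupled receptors, 3 rose and none fell, with a median of 0.35. Of 9 Gi-coupled receptors, 1 rose and 1 fell, with a median of 0.17. Over all genes tested, 15.4% were called higher and 16.3% lower. Across the alternative settings, the Gs-coupled count higher ran from 2 to 4 and the Gq-coupled one from 2 to 6. For the Gi-coupled receptors none was called in either direction without verapamil replicate 1 or 2, and 2 were called in each direction without control replicate 3. Their median was 0.03 without control replicate 2 and 0.37 without control replicate 3. Whether the coupling groups differ was not tested.

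A list of 21 receptors known mainly from macrophages, microglia and other blood cells had 11 tested members, of which 3 rose and 1 fell, beside 15.4% and 16.3% of all genes. The list did not hold Lpar5, which rose, or F2rl3, which fell, though both are also known from blood cells or platelets. Its fall, of Gpr34, was not called without verapamil replicate 1 or 2, and 2 rises were called without control replicate 1, verapamil replicate 1 or verapamil replicate 2. Their summed level was 421 to 446 CPM in controls and 534 to 596 CPM with verapamil, of which Adgre1 made up most. The median log2 fold change of the 11 receptors tested was 0.08, while that of the 16 macrophage markers was 0.47. Of 20 receptors known mainly from fibroblasts, skeletal cells and vessel walls, 19 were tested, 1 rose and 5 fell. The rise was 5.26% and the falls 26.3% of those tested, beside 15.4% and 16.3% of all genes tested. The falls numbered 3 without verapamil replicate 2 or 3, and the rises 3 without control replicate 2 or 3 or with library totals as the only scaling. Their sum was 679 to 718 CPM in controls and 593 to 603 CPM with verapamil. The median log2 fold change of the 19 receptors tested was 0.03, while that of the 12 osteoblast markers was -1.12. Endothelial markers summed to 57.9 to 60.8 CPM in controls and 49.3 to 50.9 CPM with verapamil, and 3 of 8 fell while 1 rose. Lymphocyte markers were at or near 0, with a sum of at most 0.226 CPM in any library. Of 9 osteoclast markers, Calcr, Oscar, Ocstamp and Dcstamp were too low to test, Ctsk and Nfatc1 fell, and Atp6v0d2 rose from 18.8 ± 4.53 to 38.0 ± 5.85 CPM (adjusted p = 0.00797). The whole osteoclast list summed to 337 to 364 CPM in controls and 316 to 342 CPM with verapamil. The part of a changed mix of cells in the receptors' levels was not tested.

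Downstream and upstream of the receptors, 144 genes of 15 lists were tested: the G proteins, enzymes and regulators that carry the signal, and the enzymes and carriers that make, release or remove the ligands. Of these, 24 rose, 40 fell and 80 did not pass, which is 44.4% called against 31.7% of all genes tested. The median was -0.03. The count lower was 26 without verapamil replicate 1, and with library totals as the only scaling 34 were higher and 34 lower. A call was kept with each library left out by 40 of the 64.

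**Figure D5:**
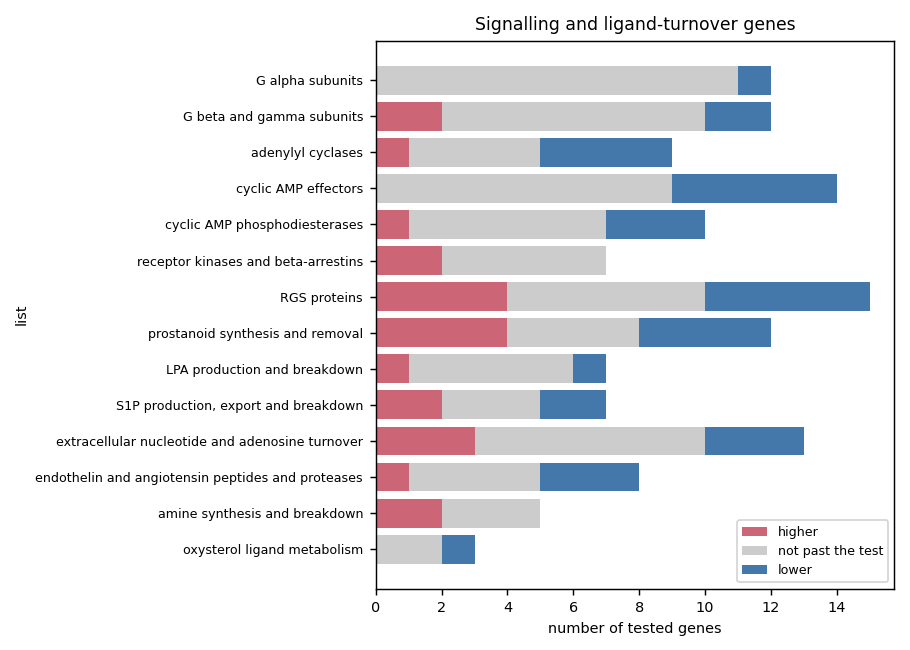
Number of tested genes higher, lower and not past the test in 14 of the 15 signalling and ligand-turnover lists, as stacked bars starting at 0. The adenylyl cyclases (9 tested) and the cyclic AMP effectors (14 tested) hold 9 of the 40 falls and 1 of the 24 rises. Those falls and rises are among 144 genes tested. Over all genes tested, 16.3% were called lower and 15.4% higher. The falls of Adcy4 and Prkar1b were each lost without control replicate 1 or any verapamil library.

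Of 12 G alpha subunits tested, Gna11 of the Gq family passed, and it fell from 106 ± 0.410 to 83.3 ± 1.84 CPM (adjusted p = 0.00173). Without control replicate 3, 2 of them passed as higher. Of 12 G beta and gamma subunits, 2 rose and 2 fell. That is 16.7% each way, where 15.4% of all genes tested were called higher and 16.3% lower. Among them were Gnb4, which fell from 57.0 ± 3.91 to 32.3 ± 2.62 CPM, and Gngt2, which rose from 2.81 ± 0.410 to 5.54 ± 0.168 CPM. Of 9 adenylyl cyclases, the makers of cyclic AMP, 4 fell and 1 rose. The falls were 44.4% and the rise 11.1% of those tested, beside 16.3% and 15.4% of all genes tested. Adcy6 fell from 116 ± 4.40 to 79.5 ± 2.09 CPM (-0.54 ± 0.05, adjusted p = 0.000440). Adcy1 fell by 1.49 ± 0.26 on the log2 scale from a low level of 2.71 CPM, and Adcy7 rose by 0.35 ± 0.07. The fall of Adcy4 (adjusted p = 0.0470) was lost on leaving out any library but control replicate 3.

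The effectors of cyclic AMP included 5 falls and no rise among 14 genes, so 35.7% were lower beside 16.3% of all genes tested. The call of Prkar1b was lost without control replicate 1 or any verapamil library (adjusted p 0.0522 to 0.137). Prkar2b, a regulatory subunit of protein kinase A, fell from 111 ± 2.98 to 78.4 ± 2.93 CPM (-0.50 ± 0.05, adjusted p = 0.000581), and Rapgef4, an exchange factor that binds cyclic AMP, by 0.57 ± 0.11. Phosphodiesterases, which break cyclic AMP down, had 3 falls and 1 rise among 10, and Pde3a fell from 17.1 ± 1.58 to 9.96 ± 0.0466 CPM (adjusted p = 0.000904). Without verapamil replicate 2 that list had 1 fall and no rise. Of the phospholipases C beta, which act below Gq, Plcb3 fell by 0.42 ± 0.08 (adjusted p = 0.00474), while Plcb2, the form known from blood cells, rose from 10.5 ± 1.04 to 17.5 ± 1.11 CPM (adjusted p = 0.00149).

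RGS proteins speed the shut-off of G proteins, and of 15 tested 4 rose and 5 fell. The rises were 26.7% and the falls 33.3%, beside 15.4% and 16.3% of all genes tested. Rgs16 had 53.7, 70.6 and 31.6 CPM in the controls and 16.1, 14.8 and 13.3 CPM with verapamil, and fell by 1.82 ± 0.29 (adjusted p = 0.00547). Its control values followed the order of the hypoxia markers, whose part was not tested. Rgs17 fell from 25.3 ± 6.31 to 9.90 ± 1.70 CPM (adjusted p = 0.00398). Rgs1 and Rgs18, both known from blood cells, rose by 0.86 ± 0.14 and 0.78 ± 0.11. The list's count lower was 3 without verapamil replicate 1 or 3 and 2 without verapamil replicate 2, and 7 were higher without control replicate 3. Of the 7 receptor kinases and beta-arrestins, which silence active receptors, Arrb2 rose from 56.7 ± 6.01 to 74.8 ± 2.83 CPM (adjusted p = 0.00795). Grk2 rose by 0.28 ± 0.06 (adjusted p = 0.0126), a call lost without control replicate 1, verapamil replicate 1 or verapamil replicate 2 (0.0551 to 0.0675).

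Enzymes of the prostanoids changed in both directions, 4 up and 4 down of 12 tested. That is 33.3% each way, where 15.4% of all genes tested were called higher and 16.3% lower. Ptgis, prostacyclin synthase, had 36.0, 41.8 and 28.8 CPM in the controls and 8.03, 7.31 and 9.03 CPM with verapamil. The groups lay far apart, and Ptgis fell by 2.13 ± 0.15 on the log2 scale (adjusted p = 0.000137), while the prostacyclin receptor Ptgir was called higher as given above. Hpgds, a prostaglandin D synthase, rose from 67.1 ± 13 to 109 ± 4.91 CPM (adjusted p = 0.00652). The inducible cyclooxygenase Ptgs2 fell from 13.8 ± 6.83 to 4.98 ± 0.638 CPM (adjusted p = 0.0381), a call lost on leaving out any library but control replicate 3 (0.0873 to 0.142). The list had 1 fall without verapamil replicate 1 and 2 without control replicate 1, verapamil replicate 2 or verapamil replicate 3.

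Spns2, the exporter of sphingosine 1-phosphate, fell by 1.78 ± 0.14, from 6.29, 5.66 and 6.20 CPM in the controls to 1.91, 1.62 and 1.75 CPM with verapamil (adjusted p = 0.000184). Sphk1, a kinase that makes this lipid, fell from 67.4 ± 8.80 to 43.7 ± 1.94 CPM, and Sgpl1, the lyase that breaks it down, rose from 292 ± 27.7 to 415 ± 18.1 CPM. With Asah1, these were the 4 called of 7 in that list, 2 in each direction, and 1 rose without any single verapamil library. Each direction held 28.6% of those tested, where 15.4% of all genes tested were called higher and 16.3% lower. The list for lysophosphatidic acid had 1 rise, Plpp3, and 1 fall, Pla1a, of 7. Each was lost without control replicate 1 or any verapamil library, and Plpp3 also without control replicate 2.

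Among 13 genes for the turnover of extracellular nucleotides, 3 rose and 3 fell. That is 23.1% each way, where 15.4% of all genes tested were called higher and 16.3% lower. Nt5e, the surface enzyme that makes adenosine from AMP, fell from 38.2 ± 5.12 to 13.1 ± 0.302 CPM (-1.54 ± 0.10, adjusted p = 0.000134). Panx1, a channel that releases ATP, had 9.53, 7.80 and 13.05 CPM in the controls and 21.8, 24.7 and 22.8 CPM with verapamil, a rise of 1.18 ± 0.17 (adjusted p = 0.00194). Cd38, an enzyme that uses NAD, rose from 64.5 ± 1.88 to 110 ± 2.76 CPM (adjusted p = 0.000135). Without control replicate 1, verapamil replicate 2 or verapamil replicate 3, 2 were higher. Of 8 genes for endothelin and angiotensin peptides, Ece2 and Ece1, which cut the endothelin precursor, and Agt fell, and Atp6ap2 rose. Ece1 went from 251 ± 26.1 to 181 ± 6.63 CPM (adjusted p = 0.00376). That list had 2 falls without control replicate 1, verapamil replicate 1 or verapamil replicate 3, each time through the loss of Agt. Of 5 amine enzymes, Maoa, which breaks down noradrenaline, rose from 84.6 ± 9.90 to 120 ± 6.06 CPM (adjusted p = 0.00421). Hnmt rose as well (adjusted p = 0.0352), a call lost without control replicate 1 or any verapamil library. Ch25h, which makes an oxysterol precursor of the Gpr183 ligand, fell from 3.76 ± 0.788 to 2.23 ± 0.0645 CPM (adjusted p = 0.0185), also lost without those libraries.

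The 59 receptors without enough reads for testing had summed counts of 1 to 61.98 over all 6 libraries, and no library held more than 18.62 estimated counts of any of them. They were 26 of the 44 remaining Gpr genes, 11 of the 25 adhesion receptors, 6 of the 9 metabolite- and lipid-sensing receptors, 3 of the 4 histamine receptors and smaller numbers of the other classes. Differences between the groups were not detectable for them at this depth.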

How the data were processed

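The deposited table held 1 estimated count per gene and library, a read count per the file headers, for 17491 genes, and 67.7% of its values were not whole. Libraries had been made from total RNA with a SMARTER mRNA-seq kit, per the labels' protocols, and the build was GRCm38, also called mm10, per the submitters' processing notes. The sources used here name no aligner, counter, annotation or strand setting.

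Counts were rounded and genes filtered with filterByExpr (minimum count 10, minimum total 15), which took out 4125 and left 13366. Libraries were scaled with TMM factors of 0.933 to 1.03. The 3 verapamil libraries were compared with the 3 controls with the quasi-likelihood test of edgeR 4.0.16 in R 4.3.3 (robust fit, Benjamini-Hochberg, adjusted p under 0.05). The test was also run on simulated data with equal spread in both groups. That run did not check it under the unequal spread seen here. Each SE was taken from the F statistic, as the size of the log2 fold change divided by its square root. Coordinates came from RefSeq (GRCm38.p6) for all 135 receptors, matched on Entrez ID, and lengths from the longest GENCODE transcript for 134, including the 76 tested.

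Receptors, lists and tests were chosen with earlier results of these data known. The text names the 15 largest rises and falls called among receptors, the 2 tested receptors with the highest level per kilobase in each ligand class, all tested receptors of the classes with known ligands, and up to 3 called genes with the largest change in each signalling list. Other names were chosen after their values were seen. The values of some genes and of 1 list that the rule takes in are counted in the totals but not reported here. Alternatives were DESeq2 1.42.0 size factors, library totals alone, no filter, the DESeq2 test, limma-voom (limma 3.58.1), a replicate block, and fits without each library in turn.

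Further marker lists were those of stromal progenitors (4 of 9 lower, 1 higher), osteoclasts (2 of 5 tested lower, 1 higher), neutrophils (summed level at most 2.92 CPM), mast cells (at most 12.4 CPM), adipocytes (2 of 7 higher, 1 lower), megakaryocytes and erythroid cells (1 of 2 tested lower, with sums of 53.8 to 68.7 CPM in controls and 26.7 to 31.1 CPM with verapamil) and smooth muscle (3 of 7 lower).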

Additional observations from a re-analysis of the deposited data

How the results depend on the processing

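Of 912 values of the 76 receptors under the 12 alternatives, 810 kept their direction and side of the threshold, 49 lost a call (11 receptors), 30 gained one (18 receptors) and 23 changed sign (16 receptors). All of these last were receptors not past the test. Receptors higher numbered 19 with library totals alone and 6 to 15 with 1 library left out, and receptors lower 10 to 18. The median log2 fold change was 0.107 with library totals alone, which moved the median of all genes to 0.087, and -0.0206 to 0.0579 with 1 library left out. Signalling genes lower numbered 26 to 45 and higher 16 to 33 with 1 library left out. Fits without a library rest on fewer samples, and the cause of these shifts was not tested further.

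With the replicate number as a block, 8 receptors were higher and 13 lower, the median was 0.016 and 22.1% of all genes were called. Same-numbered libraries correlated at 0.00892, -0.167 and -0.127, and not every library correlated best with its own number, so these data do not show that the numbers pair the samples. The submitters' design text speaks of 3 pairs and does not say what was paired.

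Signs changed with library totals alone for Ptger4 (0.022), Gpr107 (0.0201) and Gpr137 (0.0248), and under the replicate block for Agtr1a (-0.00742). With 1 library left out, the log2 fold change spanned 0 for Ptger4 (-0.223 to 0.0419), Ptgfr (-0.0205 to 0.386), P2ry12 (-0.206 to 0.00107), P2ry13 (-0.0238 to 0.154), Adora2a (-0.454 to 0.178), Hrh2 (-0.00499 to 0.416) and Agtr1a (-0.309 to 0.181). It did so too for Gprc5a (-0.689 to 0.0482), Adgra3 (-0.190 to 0.0197), Gpr108 (-0.0116 to 0.0739), Gpr141 (-0.0393 to 0.0565), Gpr173 (-0.261 to 0.0593) and Gpr19 (-0.0441 to 0.241).

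Depth limits the 59 receptors without enough reads and the 9 tested under 1 CPM.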
